A study of Homo sapiens with 6 samples.

Results

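Tubulin is the subunit from which microtubules are built, and human cells make it from several alpha-tubulin and several beta-tubulin genes, whose products are called isotypes. The mRNA levels of 10 of these genes were examined, the beta-tubulin genes TUBB, TUBB2A, TUBB2B, TUBB3, TUBB4B and TUBB6 and the alpha-tubulin genes TUBA1A, TUBA1B, TUBA1C and TUBA4A. They were chosen by name, with earlier results of these data known, and all 10 were found among the 20030 genes of the deposited count table. The libraries were made from polyadenylated RNA of HepG2, a human hepatoma cell line. HepG2 cells with a control shRNA (sh-ctrl, n = 3) were compared with HepG2 cells with an shRNA against KIF11 (sh-KIF11, n = 3), both delivered by lentivirus. KIF11 is a kinesin that slides antiparallel microtubules apart and keeps the poles of the mitotic spindle separated. The comparison asked how the tubulin mRNA pool of a hepatoma cell looked when this microtubule motor was depleted. The cells were not described as a clone, and the sources used here do not say whether the 3 libraries of a group came from separate cultures, so the p-values measure the spread between these libraries, which may be technical.

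Alpha- and beta-tubulin fold with the help of the chaperonin CCT, prefoldin and the tubulin cofactors, and then join as a dimer that adds to the growing end of a microtubule. The isotypes are close to each other over most of their length and differ most in the acidic tail at the carboxyl end, where enzymes add or remove glutamate, glycine and tyrosine. Cells also adjust tubulin mRNA to the amount of free dimer: the factor TTC5 reads the start of the nascent tubulin chain on the ribosome and, through SCAPER and CNOT11, brings a deadenylase to the mRNA. TUBB, TUBA1B, TUBA1C and TUBB4B are widely expressed isotypes, whereas TUBA1A, TUBB2B and TUBB3 are best known from neurons.

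The libraries held 18167773 to 19583282 counts each, and 12369 genes passed the filter on low counts. KIF11 itself reached 1976, 2088 and 2039 counts per sh-ctrl library against 1448, 1478 and 1240 per sh-KIF11 library. It was lower in every sh-KIF11 library than in any sh-ctrl library, with a log2 fold change of -0.75 (standard error 0.0573, adjusted p = 4.22e-15, edgeR's quasi-likelihood F-test, Benjamini-Hochberg adjustment). The expression profiles differed widely between the groups, since 69.1% of all tested genes passed an adjusted p of 0.05 in either direction, 34.4% as higher and 34.7% as lower in sh-KIF11, and 71.2% had groups that did not overlap. Over all tested genes the log2 fold change had a median of 0.004 and quartiles of -0.313 and 0.357. All 10 HepG2 hepatocyte markers examined were expressed, and 9 of them were lower in sh-KIF11, their summed level going from 32290 to 33850 CPM (counts scaled to library size with TMM factors) in sh-ctrl to 14440 to 15580 CPM in sh-KIF11. In bulk RNA, fewer cells of a type and less RNA per cell cannot be told apart.

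The coding sequences begin with the stretch that TTC5 reads as a nascent chain, which is why their starts are shown first. The first 24 coding bases are given from 5′ to 3′, read from GENCODE release 29 transcripts (GRCh38), with the first 4 codons in capitals.
TUBB: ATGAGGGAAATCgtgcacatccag
TUBB4B: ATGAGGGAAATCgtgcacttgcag
TUBB3: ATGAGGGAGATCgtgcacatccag
TUBB6: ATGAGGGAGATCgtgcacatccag
TUBB2A: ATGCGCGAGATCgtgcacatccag
TUBB2B: ATGCGTGAGATCgtgcacatccag
TUBA1A: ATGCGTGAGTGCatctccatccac
TUBA1B: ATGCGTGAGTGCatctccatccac
TUBA1C: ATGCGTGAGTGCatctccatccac
TUBA4A: ATGCGTGAATGCatctcagtccac
TUBA1A, which rose, and TUBA1B and TUBA1C, which fell, have the same 24 bases here, so the letters of this stretch do not separate the alpha genes that rose from those that fell. Among the beta genes, TUBB and TUBB4B, which fell, have the same capitals, which none of TUBB3, TUBB6 and TUBB2B, which rose, has. These differences are synonymous, since the capitals of every beta gene listed encode methionine, arginine, glutamate and isoleucine. The letters of the capitals differ between these genes, but the residues they encode do not.

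The ends of the beta-tubulin coding sequences encode the carboxyl tail, where the isotypes differ most, and TUBB2A and TUBB2B are set beside genes less like them. The last 30 coding bases are given for 5 of the 6 beta genes, without TUBB4B, and with the stop codon in capitals.
TUBB: ttcggtgaggaggccgaagaggaggccTAA
TUBB3: gaggagtcggaggcccagggccccaagTGA
TUBB6: gaggatgaggaagaggagatcgatggaTAG
TUBB2A: gaggaggaggagggcgaggacgaggctTAA
TUBB2B: gaggaggaggagggcgaggacgaggcgTAG
TUBB2A and TUBB2B differed at 25 of the 1338 positions of their whole coding sequences, an identity of 98.1%. The whole coding sequences of TUBA1A and TUBA1B were 97.2% identical over 1356 aligned positions. By contrast TUBB shared 81.6% of its coding positions with TUBB3 and 80.9% with TUBB6. Windows of 150 bases, the read length of the study, were then compared. The reads were paired, so shares of such windows are not shares of fragments. Of these windows, 49.4% in the TUBB2A transcript and 38.2% in the TUBB2B transcript occurred without a mismatch in the other of these 2 genes. The corresponding share over all other member genes was 6.91% for TUBA1A, 19.1% for TUBA1B and 6.77% for TUBA1C, whereas TUBB4B, TUBB6 and TUBA4A had no window in any transcript of another gene. TUBB had 2.5% of its windows in a pseudogene, TUBBP1, and TUBB3 had 88.7% in a transcript annotated as AC092143.1 that spans the same locus on the same strand.

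The genes lie on 6 chromosomes in GENCODE release 29 (GRCh38). TUBB2A (chr6:3153669-3157526) and TUBB2B (chr6:3224261-3231730) are neighbours on the reverse strand of chromosome 6, where TUBB lies far from them (chr6:30720201-30725426). The alpha genes TUBA1B (chr12:49127782-49131397), TUBA1A (chr12:49184796-49189324) and TUBA1C (chr12:49188736-49274603) form a group on chromosome 12, in which the annotated spans of TUBA1A and TUBA1C overlap on opposite strands. TUBB4B is at chr9:137241213-137243707, TUBB3 at chr16:89921392-89938761, TUBB6 at chr18:12307669-12344320 and TUBA4A at chr2:219249711-219278170. The library kit keeps the strand, but whether the counting used it is not given in the sources used here, so reads from overlapping genes on opposite strands may be mixed. In each case the transcript examined has 4 exons.

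The 4 most abundant isotypes fell, and 4 of the 6 less abundant ones rose. All 10 members passed the filter on low counts, and 8 of them passed the test, 4 as higher and 4 as lower in sh-KIF11, beside the 69.1% of all tested genes that did. TUBA1A, TUBB2B, TUBB6 and TUBB3 rose, TUBB, TUBA1B, TUBA1C and TUBB4B fell, and TUBB2A and TUBA4A did not pass the test. The same 8 members had groups without overlap in CPM, against 71.2% of all tested genes, a share near the background. The rises ran from 0.56, for TUBB3, to 3.96 on the log2 scale, and 3 of the 10 members rose by more than 2-fold, which 8.13% of the tested genes did. The falls lay between -0.36 and -0.62.

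**Figure D1:**
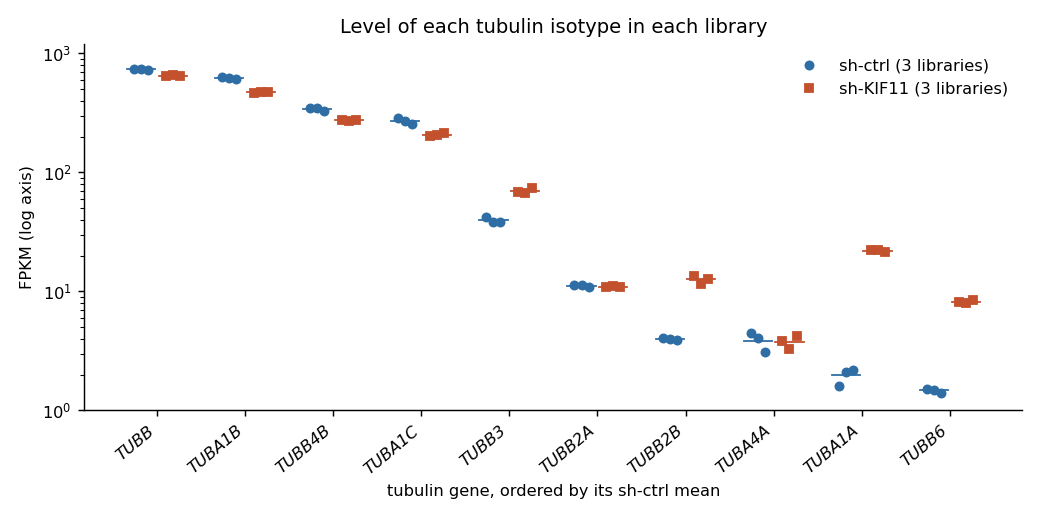
Level of the 10 tubulin genes in FPKM (logarithmic vertical axis) in each of the 3 sh-ctrl (circles) and 3 sh-KIF11 (squares) libraries, with a line at each group's mean. The 4 most abundant genes lie lower in sh-KIF11, whereas TUBA1A goes from a mean of 1.97 to 22.1 FPKM and TUBB6 from 1.47 to 8.20 FPKM.

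TUBA1A, the alpha isotype best known from developing neurons, changed most. It gave 48, 91 and 75 counts over the sh-ctrl group and 1281, 1299 and 1238 over the sh-KIF11 group. Every sh-KIF11 library was therefore more than an order of magnitude above every sh-ctrl library. The change of this gene was 3.96 on the log2 scale (standard error 0.109, adjusted p = 5.68e-30, edgeR with Benjamini-Hochberg adjustment), and 0.493% of the tested genes had a larger one. In FPKM (fragments scaled to transcript length and library size), it went from 1.97 ± 0.307 to 22.1 ± 0.409 (SD, n = 3 each), and among all genes of the table from rank 8992 to rank 2491.

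TUBB2B, a beta isotype also best known from neurons, reached 76, 50 and 75 counts per sh-ctrl library against 486, 465 and 417 per sh-KIF11 library. The groups did not overlap, and the fitted change was 2.57 on the log2 scale (standard error 0.125, adjusted p = 1.86e-21, edgeR with Benjamini-Hochberg adjustment). The deposited FPKM values gave a smaller difference, from 3.98 ± 0.0670 to 12.6 ± 0.921 (SD, n = 3 each), a ratio of 3.16 where the ratio of mean CPM was 5.91.

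TUBB6, a beta isotype of many non-neuronal tissues and the most divergent from TUBB among the beta members here, gave 133, 125 and 115 counts over the sh-ctrl group and 686, 709 and 678 over the sh-KIF11 group. The 3 libraries of each group lay close together and the groups were far apart. The fitted change was 2.28 on the log2 scale (standard error 0.0924, adjusted p = 3.57e-24, edgeR with Benjamini-Hochberg adjustment). No window of 150 bases of its transcript occurred in another gene, and its ratio in FPKM was 5.57.

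TUBB3, often used as a marker of neurons, was already the fifth most abundant of these isotypes in sh-ctrl. Its counts were 2279, 2129 and 1928 in sh-ctrl against 3486, 3538 and 3686 in sh-KIF11. It rose by a log2 fold change of 0.56 (standard error 0.0530, adjusted p = 2.05e-12, edgeR with Benjamini-Hochberg adjustment), the smallest of the 4 rises. Its level went from 39.9 ± 2.27 to 69.6 ± 3.30 FPKM (SD, n = 3 each).

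Markers of neurons were examined because 3 of the 4 members that rose are best known from neurons. Of 8 such markers, ELAVL4, NEFL, NEFM and DCX were at 0 counts in every library, and RBFOX3 and SNAP25 had at most 2. The other 2, the RNA-binding protein gene ELAVL3 and the synaptic vesicle gene SYP, were low but higher in sh-KIF11. ELAVL3 reached 9, 2 and 4 counts per sh-ctrl library against 11, 23 and 10 per sh-KIF11 library, and SYP had 17, 33 and 19 against 49, 44 and 49. The summed level of the list was 1.36 to 2.0 CPM in sh-ctrl and 3.04 to 3.29 CPM in sh-KIF11, below that of TUBA1A alone in the knockdown (63.1 ± 0.625 CPM, SD, n = 3). The part of neuron-like expression in the tubulin values was not tested.

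Markers of other cells were mostly low. Of the fibroblast markers COL1A1, COL1A2, COL3A1, PDGFRB and LUM, only PDGFRB was tested, and the summed level of the list was 2.55 to 3.93 CPM in sh-ctrl and 1.40 to 2.04 CPM in sh-KIF11. The endothelial markers PECAM1, VWF, CDH5 and KDR summed to 3.16 to 3.56 CPM and 4.69 to 4.98 CPM. Among the blood cell markers PTPRC and CD3E had 3 counts at most in any library, whereas LYZ and CD68 were expressed and fell, so that the list summed to 2480 to 2976 CPM in sh-ctrl and 505 to 636 CPM in sh-KIF11.

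TUBB, the beta-tubulin gene with the highest level in these cells, gave 59568, 59698 and 54719 counts over the sh-ctrl group and 51542, 53578 and 50519 over the sh-KIF11 group. After scaling, the group means were 3297 ± 49.9 and 2573 ± 13.9 CPM (SD, n = 3 each), without overlap. TUBB fell with a log2 fold change of -0.36 (standard error 0.0468, adjusted p = 9.15e-09, edgeR with Benjamini-Hochberg adjustment), the smallest fall of the 4. In sh-ctrl it was number 61 of all genes of the table by mean FPKM and in sh-KIF11 number 52, so its place among all genes did not drop with its level.

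TUBA1B, the alpha-tubulin gene with the highest level, reached 24865, 24797 and 22497 counts per sh-ctrl library against 17764, 18414 and 17732 per sh-KIF11 library. It showed the largest fitted fall among the members, with a log2 fold change of -0.62 (standard error 0.0466, adjusted p = 3.02e-15, edgeR with Benjamini-Hochberg adjustment). TUBA1C, its close paralog, gave 12236, 11890 and 10504 counts over the sh-ctrl group and 8606, 8883 and 8924 over the sh-KIF11 group. Its log2 fold change of -0.59 (standard error 0.0488) was within 1 standard error of that of TUBA1B. Both are broadly expressed alpha isotypes, and their groups did not overlap.

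TUBB4B, a beta isotype found in most tissues and abundant in cilia, reached 12574, 12710 and 11143 counts per sh-ctrl library against 9581, 9603 and 9372 per sh-KIF11 library. The change of this gene was -0.55 on the log2 scale (standard error 0.0475, adjusted p = 1.96e-13, edgeR with Benjamini-Hochberg adjustment). Its transcript shared no window with another gene. With counts scaled by library totals alone, which moved the median of all tested genes from 0.004 to 0.235, the 4 falls were smaller, between -0.13 and -0.39, and all 4 still passed the test.

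TUBB2A and TUBA4A showed no change that passed the test. TUBB2A, a beta isotype that is almost a copy of TUBB2B, gave 1028, 990 and 853 counts over the sh-ctrl group and 997, 994 and 1011 over the sh-KIF11 group. The groups overlapped in CPM, and the log2 fold change of -0.13 had a 95% interval from -0.26 to 0.0025 (adjusted p = 0.0755, edgeR with Benjamini-Hochberg adjustment). TUBA4A, an alpha isotype whose gene does not encode the terminal tyrosine found in most alpha-tubulins, reached 275, 253 and 180 counts per sh-ctrl library against 235, 206 and 252 per sh-KIF11 library. Its log2 fold change was -0.22 with a 95% interval from -0.46 to 0.0113 (adjusted p = 0.0847, edgeR with Benjamini-Hochberg adjustment). Both calls changed when the third sh-ctrl library was left out. TUBB2A (log2 fold change -0.18, adjusted p = 0.00755) and TUBA4A (-0.36, adjusted p = 0.00492) then passed the same edgeR test as lower. TUBA4A also passed without the third sh-KIF11 library (-0.31, adjusted p = 0.0343) and with no low-count filter (-0.24, adjusted p = 0.0491), and with library totals alone both log2 fold changes were positive, 0.10 for TUBB2A and 0.0068 for TUBA4A.

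**Figure D2:**
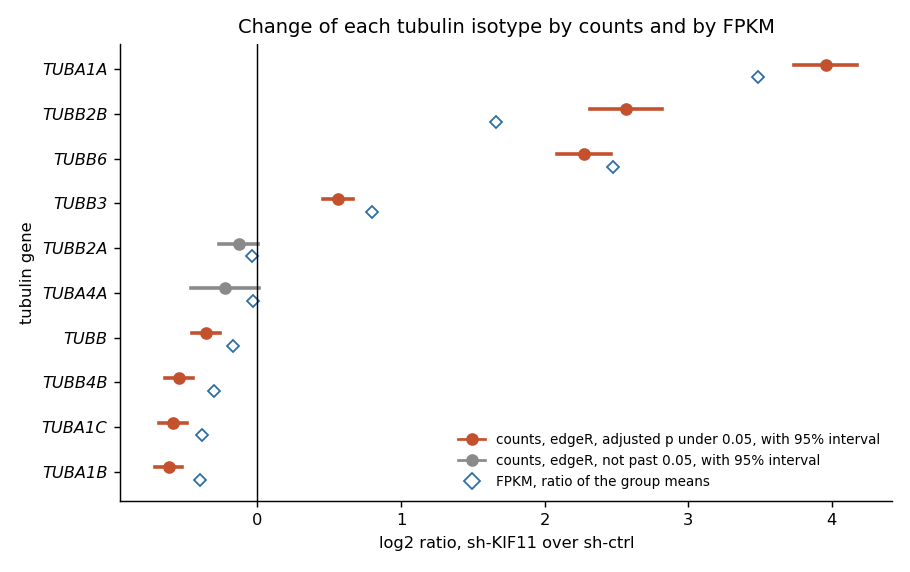
Log2 ratio of sh-KIF11 over sh-ctrl for the 10 tubulin genes (horizontal axis), as fitted to counts with its 95% interval (filled circles) and as the ratio of mean FPKM (open diamonds). The intervals of the 4 genes that rose lie above 0 and those of the 4 that fell below 0, and the largest gap between circle and diamond is that of TUBB2B, 2.57 against 1.66.

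The tables of counts and of FPKM gave different sizes for TUBB2B and TUBA1A. For TUBB2B, the number of counts per unit of FPKM was 18.7, 12.7 and 19.0 in the sh-ctrl libraries against 36.2, 40.1 and 32.7 in the sh-KIF11 libraries. For TUBA1A it was 29.7, 43.0 and 34.5 against 57.3, 58.5 and 57.3. These are the only members in which this ratio did not overlap between the groups and moved by more than 1.5 times. On library totals, TUBB2B was 6.93-fold higher by counts and 3.16-fold by FPKM, and TUBA1A was 18.3-fold and 11.2-fold higher. Over 11125 genes with more than 20 counts in every library, the log2 ratio by counts less the log2 ratio by FPKM, centred on its median, lay between -0.134 and 0.118 for the middle 95%. TUBB2B, with 1.07 on this scale, was exceeded in absolute size by 0.027% of the genes, and TUBA1A, with 0.64, by 0.0809%. TUBB2A, which shares as many windows with TUBB2B as TUBB2B does with it, was at 0.076, inside that range. It had 853 to 1028 counts per sh-ctrl library against 50 to 76 for TUBB2B. The same number of shared reads would thus weigh less in TUBB2A, so its value cannot decide on shared reads in TUBB2B. TUBB2B and TUBA1A rose by either table, and the part of shared reads in the gap was not tested.

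**Figure D3:**
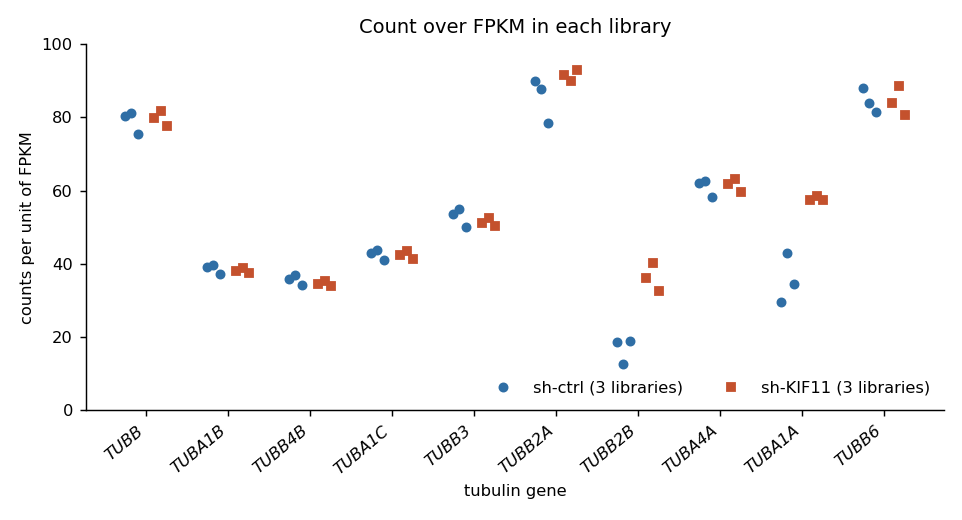
Count divided by FPKM (vertical axis, counts per unit of FPKM) for the 10 tubulin genes in each of the 3 sh-ctrl (circles) and 3 sh-KIF11 (squares) libraries. In TUBB2B the ratio goes from 12.7 to 19.0 in sh-ctrl to 32.7 to 40.1 in sh-KIF11 and in TUBA1A from 29.7 to 43.0 to 57.3 to 58.5, whereas the other genes keep nearly the same ratio.

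The composition of the tubulin pool was then read from FPKM, which is scaled to transcript length. Counts per unit of FPKM did not follow the lengths of the transcripts examined, and the reason was not tested. In sh-ctrl the mean was 85.3 for TUBB2A (1595 bases), 35.7 for TUBB4B (1637 bases) and 42.6 for TUBA1C (3001 bases). The order of genes and the sizes of their shares therefore belong to the scale of the deposited FPKM. In sh-ctrl the order of levels was TUBB, TUBA1B, TUBB4B, TUBA1C, TUBB3, TUBB2A, TUBB2B, TUBA4A, TUBA1A and TUBB6. Only TUBB2B (3.94 to 4.06 FPKM) and TUBA4A (3.09 to 4.44 FPKM) were neighbours in this order whose 3 libraries overlapped. In sh-KIF11 the first 5 places were the same, followed by TUBA1A, TUBB2B, TUBB2A, TUBB6 and TUBA4A, and no neighbours overlapped. TUBA1A thus moved from ninth to sixth place. TUBB2A and TUBB2B, the pair that shares many windows, were close in sh-KIF11, at 10.9 to 11.04 and 11.6 to 13.4 FPKM. By counts this pair stood in the other order in sh-KIF11, with means of 49.7 CPM for TUBB2A and 22.6 CPM for TUBB2B. The order of this pair thus depended on the measure used. The TUBB2B transcript examined is the longer one, at 2020 against 1595 bases. Yet TUBB2B had fewer counts per unit of FPKM in sh-KIF11, with a mean of 36.3 against 91.5 for TUBB2A. The reason was not tested.

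Of the summed FPKM of the 10 genes, TUBB made up 35.7%, 36.03% and 36.8% in the sh-ctrl libraries against 37.6%, 37.9% and 37.2% in the sh-KIF11 libraries. Its share was thus a little higher in sh-KIF11 although its level was lower, as TUBA1B, TUBA1C and TUBB4B fell further. The share of TUBA1B was 30.5%, 30.7% and 30.7% in sh-ctrl against 27.2%, 27.4% and 27.1% in sh-KIF11, a difference of -3.42 percentage points and the largest of all members. TUBA1C went from 13.3% ± 0.375 to 12.0% ± 0.307 and TUBB4B from 16.8% ± 0.213 to 15.9% ± 0.185 (SD, n = 3 each). Those 4 genes together held 96.9% ± 0.0745 of the pool in sh-ctrl and 92.7% ± 0.188 in sh-KIF11.

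The place they gave up was taken mainly by TUBB3 and TUBA1A. TUBB3 raised its share 2.04-fold, with 2.05%, 1.90% and 1.96% in sh-ctrl against 3.96%, 3.89% and 4.2% in sh-KIF11. TUBA1A had 0.0778%, 0.104% and 0.110% in sh-ctrl against 1.30%, 1.28% and 1.24% in sh-KIF11. TUBB2B went from 0.197% ± 0.00306 to 0.728% ± 0.0550 and TUBB6 from 0.0726% ± 0.000782 to 0.473% ± 0.00925 (SD, n = 3 each). The 4 genes that rose held 2.33% ± 0.0639 of the pool in sh-ctrl and 6.49% ± 0.169 in sh-KIF11. TUBB2A, whose level did not pass the test, went from 0.553% ± 0.00192 to 0.632% ± 0.00792 of a smaller total. In 9 of the 10 genes the shares did not overlap between the groups, each with an exact permutation p of 0.1, the smallest that 3 against 3 libraries allow (two-sided, 0.111 after Benjamini-Hochberg adjustment over the 10 shares). TUBA4A was the exception, with 0.189% ± 0.0295 and 0.218% ± 0.0269 and an exact permutation p of 0.4.

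**Figure D4:**
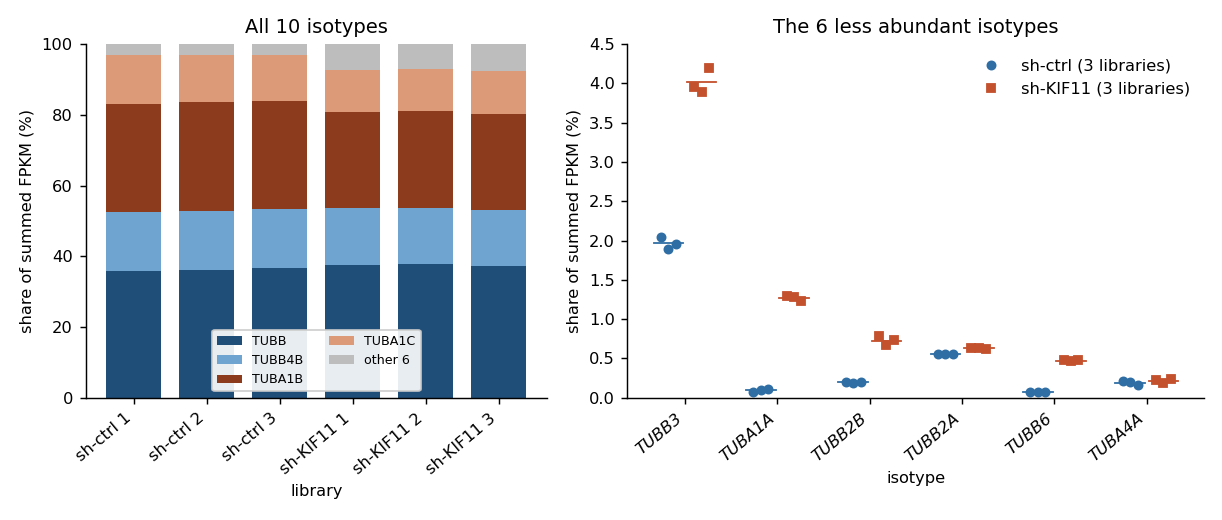
Share of each isotype in the summed FPKM of the 10 tubulin genes (percent), stacked for each of the 6 libraries on the left and shown per library for the 6 less abundant isotypes on the right, with lines at the group means. TUBB3 goes from a mean of 1.97% to 4.02% and TUBA1A from 0.0973% to 1.27%, and the 4 abundant isotypes still make up 92.7% of the pool in sh-KIF11.

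Within the alpha genes and within the beta genes the picture was the same for most members and differed for TUBB. Of the summed beta FPKM, TUBB made up 64.9% ± 0.602 for sh-ctrl and 63.3% ± 0.489 for sh-KIF11 (SD, n = 3 each), so its share among beta isotypes was lower in sh-KIF11, while its share in all 10 genes was higher. TUBB4B went from 30.1% to 26.8% and TUBB3 from 3.53% to 6.77% of the beta sum. Of the alpha sum, TUBA1B made up 69.2% ± 0.660 and 66.9% ± 0.593 and TUBA1A 0.220% ± 0.0400 and 3.13% ± 0.0970. TUBA1C kept its place, with 29.6% to 30.8% of the alpha sum in sh-ctrl and 29.1% to 30.2% in sh-KIF11, and its groups overlapped.

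The whole pool was smaller in sh-KIF11, and the alpha part fell further than the beta part. The summed FPKM of the alpha genes was 925, 903 and 866 in sh-ctrl against 696, 705 and 714 in sh-KIF11. That of the beta genes was 1151, 1134 and 1105 in sh-ctrl against 1024, 1025 and 1032 in sh-KIF11. In both sums every sh-KIF11 library lay below every sh-ctrl library. The ratio of alpha to beta was 0.795 ± 0.0102 for sh-ctrl and 0.686 ± 0.00601 for sh-KIF11 (SD, n = 3 each), without overlap. The total went from 2028 ± 52.9 to 1732 ± 13.8 FPKM, a ratio of 0.854. All of these differences had an exact permutation p of 0.1, the smallest possible here. With FPKM rescaled to the TMM factors of the counts the ratio of the totals was 0.728 and with TMM-scaled CPM 0.762, so the direction was the same under both and the size was not. As raw counts, the 10 genes took 0.573% ± 0.0149 of each sh-ctrl library and 0.512% ± 0.00378 of each sh-KIF11 library.

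Promoter sequences from RefSeq (GRCh38.p14, from 250 bases before to 50 bases after a gene start) were at hand for all 10 genes, in 15 windows. The letters CCAAT, on either strand, were present in 9 of these 15 windows and in 34.6% of all 35116 promoter windows. They occurred in at least 1 window of 7 of the 10 genes, namely of all 4 that rose, of 3 of the 4 that fell (not TUBA1B) and of neither TUBB2A nor TUBA4A. The letters TTTGAA or TTCGAA, on either strand, were present in 5 of the 15 windows, those of TUBB4B, TUBB3 and TUBA1C, and in 16.4% of all windows. Genes with several start sites had several windows, some of which overlap, so these counts are a description of the letters only.

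Among the remaining tubulin genes, gamma-tubulin TUBG1, which caps the minus end of microtubules in the nucleating ring complex, fell, and its paralog TUBG2 rose. TUBG1 gave 3873, 3938 and 3327 counts over the sh-ctrl group and 2412, 2525 and 2518 over the sh-KIF11 group (log2 fold change -0.77, adjusted p = 6.53e-17, edgeR with Benjamini-Hochberg adjustment). TUBG2 had 436, 418 and 365 against 648, 668 and 530 (log2 fold change 0.40). The platelet isotype TUBB1 reached 27, 35 and 46 counts per sh-ctrl library against 5, 7 and 6 per sh-KIF11 library (log2 fold change -2.76), and the alpha-like gene TUBAL3 had 3, 4 and 1 against 14, 16 and 13 (log2 fold change 2.18). The delta- and epsilon-tubulin genes TUBD1 (log2 fold change -0.07, adjusted p = 0.519) and TUBE1 (0.20, adjusted p = 0.0582), which act at centrioles, did not pass the edgeR test. TUBE1 passed it without the third sh-ctrl library (adjusted p = 0.0381, edgeR), without the third sh-KIF11 library (0.0166) and under upper-quartile or library-total scaling. It also passed with at least 10 counts in every library (adjusted p = 0.0328, edgeR). With limma on log2(FPKM + 1) and on log2(FPKM + 0.1) its adjusted p was 0.00124 and 0.00107. So 6 of these 12 genes were tested, of which 2 rose and 2 fell, beside 34.4% and 34.7% of all tested genes. TUBB4A, TUBB8, TUBA3E and TUBA8 had at most 14 counts in any library and were not tested, and TUBA3C and TUBA3D were at 0 throughout.

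The genes of the mRNA autoregulation pathway were each expressed. TTC5, which recognises the nascent tubulin chain, gave 301, 353 and 318 counts over the sh-ctrl group and 417, 440 and 364 over the sh-KIF11 group, with a log2 fold change of 0.13 (standard error 0.0889, adjusted p = 0.188, edgeR with Benjamini-Hochberg adjustment). It passed the test with upper-quartile factors (0.21, adjusted p = 0.0345, edgeR) and with library totals (0.36, adjusted p = 0.000359, edgeR). With limma on log2(FPKM + 1) and on log2(FPKM + 0.1) its adjusted p was 0.0278 and 0.0256. SCAPER, the adaptor, rose from 9.83 ± 0.363 to 16.2 ± 1.15 CPM (SD, n = 3 each, log2 fold change 0.72). CNOT11, through which the deadenylase is reached, fell from 170 ± 5.91 to 133 ± 2.84 CPM (log2 fold change -0.35). Of the 3 genes, 1 therefore rose, 1 fell and 1 did not pass.

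Of the 21 genes of tubulin folding and assembly, all tested, 4 rose and 12 fell, beside 34.4% and 34.7% of all tested genes. Their median log2 fold change was -0.165, beside 0.004 for all tested genes. No subunit of the CCT chaperonin rose and 5 of 8 fell, between -0.35 and 0.05 on the log2 scale. Prefoldin was split, with 3 of 6 subunits higher, PFDN4 most (log2 fold change 0.47), and 3 lower, PFDN6 most (-0.48). Among the cofactors and their regulator ARL2, the cofactor E-like gene TBCEL rose (0.68) and 4 of 7 fell, among them TBCA, which holds beta-tubulin during folding (-0.39). This split depended on the scaling, since 7 genes were higher and 4 lower with library totals alone, and 7 and 5 with limma on log2(FPKM + 1). The number that rose went from 4 to 2 without the first sh-ctrl library, and also to 2 without the third sh-KIF11 library.

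Of the enzymes that modify tubulin, 18 of 23 genes were tested, 7 rose and 5 fell, with a median of -0.03. The share that passed was near the 69.1% of all tested genes. The genes that add and those that remove glutamate each moved in both directions. Of the deglutamylases, which trim glutamate chains from the tubulin tail, AGBL2 and AGTPBP1 rose. AGBL2 reached 44, 41 and 38 counts per sh-ctrl library against 118, 117 and 132 per sh-KIF11 library (log2 fold change 1.38), and AGTPBP1 had 316, 261 and 300 against 610, 672 and 648 (0.94). AGBL5 fell (log2 fold change -0.22) and AGBL3 did not pass the test (0.20, adjusted p = 0.329, edgeR). Of the glutamylases, which add glutamate, TTLL11 (log2 fold change -0.63) and TTLL4 (-0.42) fell, TTLL1 (0.75) and the subunit of its complex TPGS1 (0.48) rose, and TTLL5 did not pass (-0.13, adjusted p = 0.136, edgeR). AGBL3, AGBL5, TTLL1, TTLL5 and TPGS1 were named after their values were seen. AGBL5 was not lower with library totals (0.0149) or with limma on log2(FPKM + 1) (0.0013), and AGBL3 passed as higher under both (adjusted p = 0.0299, edgeR, and 0.0166, limma). TTLL1 did not pass without the second sh-KIF11 library (adjusted p = 0.0522, edgeR) or with limma on log2(FPKM + 1) (0.0503), and TTLL5 passed as lower without the second sh-ctrl library (adjusted p = 0.0358, edgeR). The call of TTLL11 was lost without the third sh-ctrl library (adjusted p = 0.104, edgeR with Benjamini-Hochberg adjustment) and with library totals (0.0805). It was also lost with limma on log2(FPKM + 1) (log2 fold change -0.046, adjusted p = 0.373) and on log2(FPKM + 0.1) (-0.196, adjusted p = 0.346). With library totals 2 genes of the list fell, and with limma on either FPKM scale 1 did.

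The genes of microtubule nucleation were all tested and all passed, 3 as higher and 8 as lower, beside 34.4% and 34.7% of all tested genes, with a median log2 fold change of -0.266. The small ring-complex proteins fell most. MZT1 gave 520, 522 and 583 counts over the sh-ctrl group and 300, 292 and 234 over the sh-KIF11 group (log2 fold change -1.18, adjusted p = 7.96e-15, edgeR with Benjamini-Hochberg adjustment). MZT2B had 3688, 3441 and 3271 against 1923, 1892 and 1731 (-1.10), where reads of its near-copy MZT2A may be mixed in. The ring subunit TUBGCP5 (0.47) and TUBG2 rose. Under library totals, and under limma on either FPKM scale, 5 genes were lower instead of 8.

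Most of the tested genes for proteins that stabilise microtubules or bind their growing ends rose. Of 24 genes, 19 were tested, 13 rose and 3 fell, beside 34.4% and 34.7% of all tested genes, with a median log2 fold change of 0.339. The large neuronal-type proteins of the MAP family led the list. MAP1B reached 132, 161 and 124 counts per sh-ctrl library against 1088, 1345 and 1334 per sh-KIF11 library (log2 fold change 2.98, standard error 0.0954, adjusted p = 1.07e-27, edgeR with Benjamini-Hochberg adjustment). MAP1A had 11, 7 and 5 counts against 88, 70 and 83 (3.18, standard error 0.30). CLIP2, which tracks growing plus ends (-0.58), and CAMSAP3, which binds minus ends (-0.44), fell. Of the destabilisers and severing enzymes, 8 of 12 were tested, 4 rose and 1 fell, beside the same background, with a median of 0.17. STMN1, which sequesters tubulin dimers, was the gene that fell, with 7838, 8298 and 8396 counts in sh-ctrl against 5900, 6078 and 5538 in sh-KIF11 (log2 fold change -0.69). Its paralog STMN3, known from neurons, had 98, 105 and 74 counts against 704, 674 and 643 (2.67), and the severing enzyme SPAST rose by less (0.29).

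**Figure D5:**
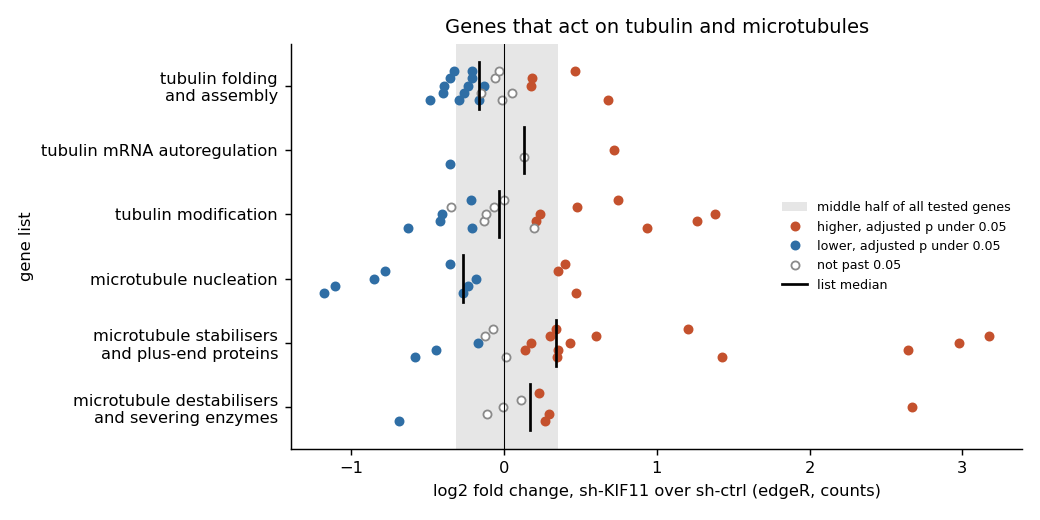
Log2 fold change of sh-KIF11 over sh-ctrl (horizontal axis, edgeR on counts) for each tested gene of 6 lists that act on tubulin and microtubules (vertical position within a list has no meaning), with filled points past an adjusted p of 0.05, a black line at each list's median and grey shading between the quartiles of all tested genes, -0.313 and 0.357. The medians run from -0.266 for nucleation to 0.339 for stabilisers and plus-end proteins.

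The genes whose profiles over the 6 libraries were closest to the leading alpha and beta genes were not tubulin genes. For TUBA1B they were EIF6, MRPL37 and IMPDH2, with Euclidean distances of 0.0319, 0.0330 and 0.0392 between log2 CPM profiles centred on their means. For TUBB they were RUVBL2, NEDD4L and PRDX6, with distances of 0.0182, 0.0284 and 0.0405. With 6 libraries in 2 groups, such a profile is mostly the difference between the groups.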

How the data were processed

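The authors deposited raw counts per gene and, in a further table, FPKM values for the same genes, which were scaled to transcript length and library size before deposit. Per the labels, the submitters' processing notes list Trimmomatic, HISAT2 2.1.0, HTSeq 0.9.1, Cufflinks 2.2.1 and DESeq and the build GRCh38, without saying which tool made which table or how reads that match several genes were treated. The knockdown columns are named only as shRNA and were taken as sh-KIF11, the only other shRNA of the labels.

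Counts were tested in R 4.3.3 with edgeR 4.0.16 (filterByExpr, TMM factors, quasi-likelihood fit over all genes with the group as the only term, two-sided, Benjamini-Hochberg over 12369 genes, threshold 0.05). Depth was 18167773 to 19583282 counts per library, so that 3 counts, the limit that a count of 0 allows, are 0.145 to 0.178 CPM, for counting error only. Libraries of 1 group were no duplicates (chi-square over its degrees of freedom 2.67 to 7.85). Each was counted as a replicate, though this value does not show whether they came from separate cultures. Shares and sums were taken from FPKM and compared by exact permutation tests in scipy 1.17.1. The FPKM fits in limma 3.58.1 used log2(FPKM + 1) or log2(FPKM + 0.1), and DESeq2 1.42.0 was another alternative. On simulated counts with 200 genes changed by 2-fold, among 12265 genes fitted, edgeR recovered 100% of the changed genes with 6 false calls. The simulation used 1 dispersion for all genes, well-counted changed genes, as many rises as falls and no other change. In these data 69.1% of the tested genes passed, so the simulation checks the code only. It does not test the scaling or changes under 2-fold.

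The 10 members and the gene lists were chosen with earlier results of these data known. Named were all members, the other tubulin genes, TTC5, SCAPER, CNOT11 and KIF11. Each further list gave the 2 genes with the largest rise and the 2 with the largest fall. These were taken among genes past 0.05 with a mean of at least 1 CPM. The 3 genes outside the members that were nearest in profile to TUBA1B and to TUBB were also named. The markers ELAVL3, ELAVL4, NEFL, NEFM, DCX, RBFOX3, SNAP25 and SYP and those of the other marker lists were named as whole lists. Windows of 150 bases were matched without mismatch to all GENCODE release 29 transcripts, from 1 transcript per member. Protein sequences were not analysed here beyond the residues encoded by the first 4 codons of the beta genes.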

Additional observations from a re-analysis of the deposited data

How the results depend on the processing

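The calls of the 10 tubulin genes kept their direction and side of the threshold in 144 of 150 pairs of gene and alternative. The 8 genes that passed the test did so under all 15 alternatives. The exceptions were TUBB2A and TUBA4A, whose log2 fold changes turned to 0.10 and 0.0068 under library totals alone (edgeR, adjusted p = 0.173 and 0.961), and 3 further settings, in which one or both passed as lower. TUBD1 turned to 0.0081 with upper-quartile factors, 0.16 with library totals, 0.086 with limma on log2(FPKM + 1) and 0.10 with limma on log2(FPKM + 0.1), none past the threshold. AGBL5 turned to 0.0149 with library totals and to 0.0013 with limma on either FPKM scale, and TTLL5 to 0.10 with library totals, again none past it. The median of all tested genes, 0.004 in the reported fit, was 0.235 with library totals, 0.116 to 0.169 with limma on FPKM and 0.083 with upper-quartile factors, and the share of higher genes among all calls went from 49.8% to 73.6%, 68.5% to 68.6% and 58.5%, which gave 6621 higher and 2373 lower genes under library totals and 2596 and 2597 lower genes under limma. The summed tubulin level in sh-KIF11 over sh-ctrl, 0.854 in FPKM, was 0.762 as TMM CPM and 0.728 in rescaled FPKM, the alpha sum (0.785) 0.688 and 0.669, and the beta sum (0.909) 0.798 and 0.775. The share of TUBB differed by -1.57 percentage points within the beta genes instead of by 1.39 in all 10. With TMM CPM in place of FPKM every share kept its direction, but the size changed most for TUBB2B and TUBA1A. The share of TUBB2B rose 7.75-fold by CPM and 3.70-fold by FPKM, and that of TUBA1A 20.35-fold and 13.09-fold. Leaving out each library gave 8 to 10 called members, 9 to 10 shares without overlap and total ratios of 0.842 to 0.864. The replicate numbers did not pair the libraries (correlation of same-numbered deviations 0.03, -0.0185 and -0.00253), and the replicate block called 8 members and 8607 genes instead of 8548. In genes with under 100 counts per sh-ctrl library, as TUBA1A and TUBB2B, counting error limits the sh-ctrl level.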
